A study of Homo sapiens with 6 samples.

Results

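Long noncoding and antisense RNAs were followed in MCF10A cells, a non-transformed human mammary epithelial line, after depletion of the Hippo pathway coactivators YAP and TAZ. The 10 genes are CYTOR, MIR4435-2HG, MIR31HG, PROSER2-AS1, INHBA-AS1, NEAT1, MALAT1, GAS5, SH3BP5-AS1 and the coding gene PROSER2, which lies opposite PROSER2-AS1. They were picked by symbol from the 23459 genes of the count table, and all 10 were found. Part of them were picked because they differed strongly between the same libraries that are compared here, so the values below describe these genes and carry no test.

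The siCtrl libraries came from cells given 20 nM of a non-targeting siRNA and the siYAP/TAZ libraries from cells given 20 nM of siRNA against YAP and TAZ, with 3 libraries in each group. All cells were parental MCF10A grown in medium with serum and EGF. Libraries were read from the 3′ end of polyadenylated RNA, so long and short transcripts count alike, and levels of different genes are set side by side without a length correction. The study asked how YAP, TAZ and JUN act on shared target genes. For 2 libraries the title and genotype entries name the opposite group to the description field, which is also the name of the table column and was used here. These are siCtrl replicate 2 and siYAP/TAZ replicate 2. The study's methods call the replicates of its RNA-Seq samples biological, and the labels of these libraries do not say whether they came from separate cultures. If they did not, errors and p-values measure only technical spread.

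Depth ran from 3175149 to 4317286 counts per library. The level that an empty row still allows, 3 counts, amounted to 0.695 to 0.945 CPM (counts relative to library size). It was taken on raw library totals, while the other CPM values are TMM-normalised. This floor covers counting error only, since reads are not independent molecules. YAP1 stood at 57.5% and WWTR1, which encodes TAZ, at 61.8% of the siCtrl level in siYAP/TAZ. The libraries with conflicting labels lay with their described groups, at 204 (siCtrl replicate 2) and 118 CPM (siYAP/TAZ replicate 2) for YAP1 and at 109 and 67.1 CPM for WWTR1. The library described as siCtrl replicate 2 stood apart from its group, at 7.15 on the first principal component (48.4% of the variance), where siCtrl replicates 1 and 3 were at -42.6 and -34.9. Results without it are given below. Of the mammary epithelial markers, 9 of 9 were detected, among them KRT5 and ITGA6, and their summed level was 1964 to 2374 CPM in siCtrl against 1590 to 1798 CPM in siYAP/TAZ. They did not all go the same way. The log2 fold change was below 0 for 7 of them and above 0 for 2, TP63 (0.58) and CDH1 (0.25). The 9 markers of leukocytes, endothelium, fibroblasts and hepatocytes summed to 5.17 to 8.64 CPM in siCtrl against 7.93 to 14.5 CPM in siYAP/TAZ. CD79A and COL1A2 had 0 counts in every library, and the endothelial marker PECAM1 had 1.32 CPM in siCtrl against 5.88 CPM in siYAP/TAZ. VWF, also endothelial, had 1.23 CPM in siCtrl against 1.26 CPM in siYAP/TAZ.

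Long noncoding RNAs are transcribed and often spliced and polyadenylated like messages, but they are not known to encode a protein. Some act as scaffolds in the nucleus, as NEAT1 does in paraspeckles, some carry small RNAs in their introns and serve as hosts for snoRNAs or microRNAs, and some are antisense to a coding gene and share its locus. Where the counted parts of an antisense gene and its partner overlap, their reads can be told apart only if counting uses the strand. YAP and TAZ have no DNA-binding domain and reach chromatin through TEAD factors, often at sites that AP-1 factors also occupy.

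CYTOR and MIR4435-2HG are related copies on chromosome 2. CYTOR (Entrez 112597) spans chr2:87754300-87936259 on the plus strand and MIR4435-2HG (Entrez 541471) spans chr2:111763592-112280953 on the minus strand (GRCh37, GENCODE 44). The last exon of the most frequent CYTOR transcript end is shown with its copy inside an exon of MIR4435-2HG, because a 3′ library reads the ends of transcripts. This end is used by 4 of the 39 annotated CYTOR transcripts. The exon lies at chr2:87820726-87821032 on the plus strand and its copy at chr2:112186891-112187197 on the minus strand (GRCh37). The last 260 of the 307 bases are shown, chr2:87820773-87821032 and chr2:112186891-112187150, and capitals mark the bases that differ:

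CYTOR end: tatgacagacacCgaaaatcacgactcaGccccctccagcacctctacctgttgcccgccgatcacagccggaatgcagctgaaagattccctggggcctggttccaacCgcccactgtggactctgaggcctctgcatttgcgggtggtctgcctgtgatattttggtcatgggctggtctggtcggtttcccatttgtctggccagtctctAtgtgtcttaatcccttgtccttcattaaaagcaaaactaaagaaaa

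copy in MIR4435-2HG: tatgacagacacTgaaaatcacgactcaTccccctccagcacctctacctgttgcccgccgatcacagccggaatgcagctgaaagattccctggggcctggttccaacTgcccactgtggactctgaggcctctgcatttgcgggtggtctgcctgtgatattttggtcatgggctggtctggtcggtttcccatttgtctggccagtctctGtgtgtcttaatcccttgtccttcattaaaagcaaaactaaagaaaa

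The copies are 98.7% identical, with 4 mismatches in 307 bases, at positions 13, 29, 110 and 214 of the bases shown, counted from 1 at the 5′ end. A window of 75 bases, taken as an example of a read length, is identical in both at 35 of 233 positions (15.0%), and the longest identical stretch is 103 bases. The most frequent end of MIR4435-2HG itself, used by 18 of its 108 annotated transcripts, had no other near-identical locus in the genome at 95% identity over 100 bases. Of the other genes, GAS5 alone had such loci for the last 400 bases of its most frequent end, at chr6:90431341-90431520 and chr15:26890939-26891118, both 96.7% identical over 180 bases.

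The promoters of the CYTOR pair are copies as well. RefSeq promoter sequence (GRCh38.p14, 250 bases before to 50 after the gene's start) was on hand for 8 of the 10 genes, in 9 windows. The windows of CYTOR and MIR4435-2HG are identical over 241 of 241 aligned bases, shifted by 59. The CYTOR window, chr2:87455177-87455476 on the plus strand, is shown with the AP-1 motif TGANTCA in capitals, because YAP and TAZ often act beside AP-1:

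CYTOR promoter: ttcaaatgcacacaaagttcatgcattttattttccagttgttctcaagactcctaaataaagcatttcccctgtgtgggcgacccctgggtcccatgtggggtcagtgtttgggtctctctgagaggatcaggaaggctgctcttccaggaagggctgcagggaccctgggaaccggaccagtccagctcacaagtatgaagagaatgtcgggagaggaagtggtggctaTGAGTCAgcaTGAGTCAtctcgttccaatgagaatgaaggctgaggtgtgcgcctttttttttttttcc

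This motif, searched on both strands, has its first base at -19 and -9 from the start in the CYTOR window and at 41 in the MIR4435-2HG window, and it was found in no window of the other 6 genes. Because the windows are shifted, the stretch matching the second CYTOR site lies past the end of the MIR4435-2HG window and was not searched. The motif occurs in 7.71% of the 35116 promoters of that table. The TEAD motif GGAATG, searched on both strands, was in 0 of the 9 windows and in 14.0% of all promoters. These matches describe letters in short windows and say nothing on binding.

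Both MIR4435-2HG and MIR31HG are named for a microRNA. The mature RefSeq sequences are shown with the seed (bases 2 to 8), the part that pairs with targets, in capitals. Those of MIR4435-1, inside CYTOR, and MIR4435-2, inside MIR4435-2HG, are identical:

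hsa-miR-4435: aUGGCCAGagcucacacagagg

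hsa-miR-31-5p: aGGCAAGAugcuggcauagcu

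The seeds of the pair differ. A library of polyadenylated 3′ ends does not capture mature microRNAs, and the table rows for them were near empty. MIR31 had 0 counts in all 6 libraries, and MIR4435-1 had 1 count in siCtrl replicate 1 and 0 in the others. The host transcripts can thus be followed, and the microRNAs cannot.

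**Figure D1:**
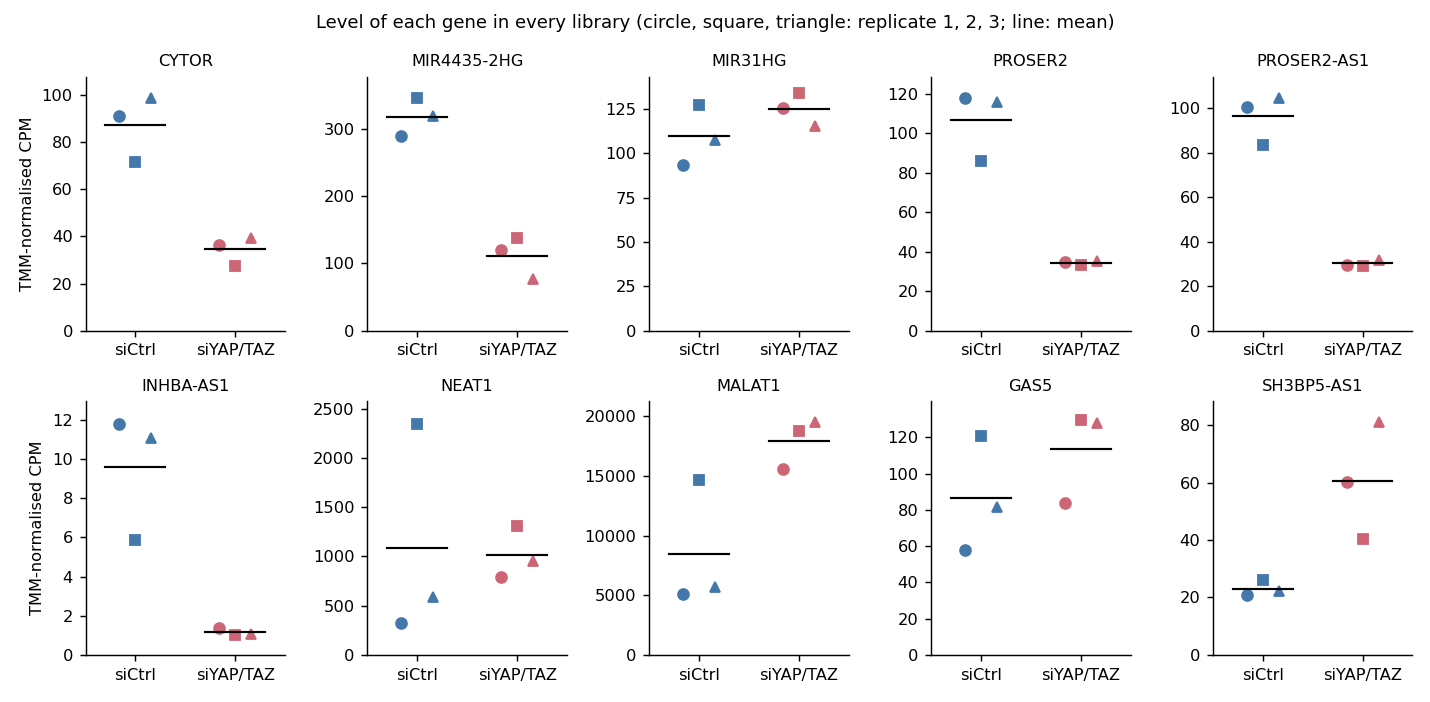
Level of each of the 10 genes in TMM-normalised CPM (linear axis from 0) in every library, with siCtrl in blue, siYAP/TAZ in red, the replicate number as the symbol and the group mean as a line. The groups do not overlap for 7 of these genes, which were chosen with this contrast known, beside 22.1% of all genes tested. For NEAT1 the siCtrl library of replicate 2, at 2348 CPM, lies above all others.

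The levels of the 10 genes ranged widely. MALAT1 was the most abundant, with 0.523% to 1.94% of all counts of a library, followed by NEAT1, and INHBA-AS1 was the least abundant. MIR4435-2HG came next to NEAT1 in siCtrl, while in siYAP/TAZ its mean lay just below those of MIR31HG and GAS5, within their spread. In siCtrl, MIR31HG, PROSER2, PROSER2-AS1, CYTOR and GAS5 lay between 86.6 and 109.6 CPM, and these neighbours did not differ beyond their spread. In bulk RNA, fewer cells that express a gene and less RNA per cell cannot be told apart.

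Over all 12510 genes fitted with edgeR, 1.96% had an adjusted p below 0.05, 1.22% lower and 0.743% higher in siYAP/TAZ, and 22.1% had groups that did not overlap. All 10 chosen genes passed the low-count filter. Of these, 5 were past the threshold and lower (CYTOR, MIR4435-2HG, PROSER2, PROSER2-AS1 and INHBA-AS1), 1 was past it and higher (SH3BP5-AS1), and 7 had groups that did not overlap. Since the genes were chosen with this contrast known, nothing is read from those counts. The calls depended on single libraries. Without siCtrl replicate 3, where 0.126% of all genes passed, only PROSER2 and PROSER2-AS1 were past the threshold, and without siYAP/TAZ replicate 3, with 0.142% of all genes, MIR4435-2HG was as well. Without siCtrl replicate 2 there were 8, beside 12.3% of all genes, and without both libraries of conflicting labels also 8, beside 9.29%. With the replicate block there were 7, beside 10.1%. SH3BP5-AS1 also lost its call without siCtrl replicate 1 or siYAP/TAZ replicate 1, and INHBA-AS1 without siYAP/TAZ replicate 2.

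CYTOR, named as a regulator of the cytoskeleton, was lower in siYAP/TAZ. It had 91.0, 71.6 and 99.0 CPM in siCtrl replicates 1, 2 and 3 against 36.5, 27.4 and 39.4 CPM in siYAP/TAZ replicates 1, 2 and 3. The groups did not overlap, and the lowest library of each group was replicate 2. The means were 87.2 ± 14.1 and 34.5 ± 6.25 CPM (SD, n = 3), so 39.5% of the siCtrl level was left, a log2 fold change of -1.34 (SE 0.19).

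MIR4435-2HG was lower to a similar degree, from a higher level. It had 289, 345 and 319 CPM in siCtrl against 119, 138 and 76.4 CPM in siYAP/TAZ. The groups were well apart, with the lowest value in siYAP/TAZ replicate 3. The means were 318 ± 28.4 and 111 ± 31.4 CPM (SD, n = 3), which leaves 34.98% and a log2 fold change of -1.52 (SE 0.21).

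Because the ends of the pair are so alike, the share of CYTOR in the summed raw counts of both genes was compared between libraries. It was 24.0%, 17.2% and 23.7% in siCtrl against 23.4% and 16.6% in siYAP/TAZ replicates 1 and 2. In siYAP/TAZ replicate 3 it was 34.0%, with an exact 95% binomial interval of 29.5% to 38.8%, and no other library's interval reached that range (the highest upper bound was 26.7%). These intervals cover counting error only, not the spread between libraries. How reads of the identical stretches were divided between them was not tested. Summed as a single feature, CYTOR and MIR4435-2HG had a log2 fold change of -1.48.

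MIR4435-2HG also spans 2 coding genes on the opposite strand. BCL2L11 encodes BIM, which promotes cell death at mitochondria, and shares 727 exonic bases with it. BCL2L11 had 16.9, 25.3 and 18.1 CPM in siCtrl against 48.3, 45.3 and 68.5 CPM in siYAP/TAZ, the opposite direction to MIR4435-2HG. Its log2 fold change was 1.43 (SE 0.23, edgeR adjusted p of 0.0168), and its call was lost when siCtrl replicate 1 (0.0602), siCtrl 3 (0.115) or siYAP/TAZ 3 (0.107) was left out. ACOXL shares 112534 bases of span and 0 exonic bases with MIR4435-2HG and did not pass, at 0.15. When the counts of BCL2L11 were added to those of MIR4435-2HG, the log2 fold change of the sum was -1.03.

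MIR31HG (Entrez 554202, chr9:21380072-21559890, minus strand) is the host transcript of miR-31 and lies among interferon genes. It had 93.6, 127 and 108 CPM in siCtrl against 126, 134 and 116 CPM in siYAP/TAZ. The groups overlapped, since siCtrl replicate 2 was above siYAP/TAZ replicates 1 and 3. The means were 109.6 ± 16.98 and 125 ± 9.32 CPM (SD, n = 3), with a log2 fold change of 0.19 (SE 0.15). Of the interferon genes within its span, IFNA1, IFNA2 and IFNA8 had 0 counts in all libraries and IFNE had 1 to 6 counts.

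**Figure D2:**
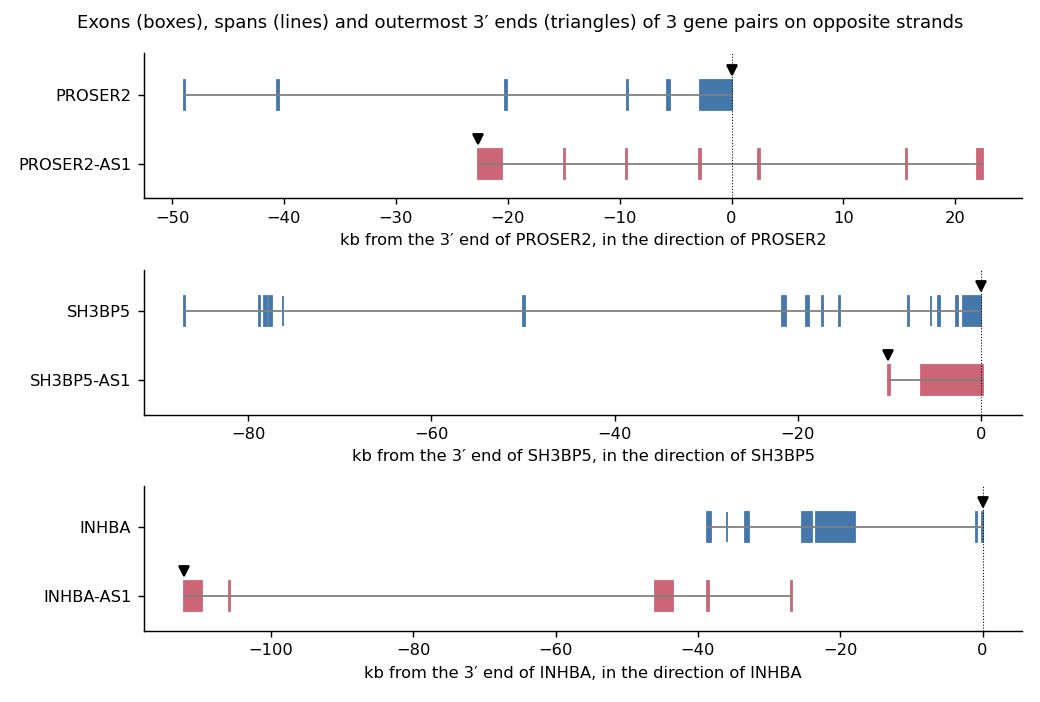
Exons (boxes) and spans (lines) of PROSER2, SH3BP5 and INHBA in blue and of their antisense genes in red, in kb from the outermost 3′ end of the coding gene, with triangles at the outermost 3′ ends. PROSER2-AS1 and SH3BP5-AS1 cover the 3′ end of their partners, and INHBA-AS1 does not.

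PROSER2 and PROSER2-AS1 had nearly the same counts and the same difference. PROSER2 (Entrez 254427, chr10:11865338-11914276, plus strand) encodes a proline- and serine-rich protein, and PROSER2-AS1 (Entrez 219731, chr10:11891607-11936699, minus strand) crosses its 3′ part. PROSER2 had 118, 86.1 and 116 CPM in siCtrl against 34.7, 33.1 and 35.4 CPM in siYAP/TAZ. PROSER2-AS1 had 100.5, 83.6 and 105 CPM in siCtrl against 29.7, 29.1 and 31.8 CPM in siYAP/TAZ. For both, siCtrl replicate 2 was the lowest control and the siYAP/TAZ libraries lay close together. PROSER2 had means of 107 ± 17.8 and 34.4 ± 1.18 CPM (SD, n = 3) and a log2 fold change of -1.63 (SE 0.16). PROSER2-AS1 had means of 96.3 ± 11.2 and 30.2 ± 1.44 CPM (SD, n = 3) and a log2 fold change of -1.67 (SE 0.15).

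The raw counts show how alike the rows of this pair are. PROSER2 had 411, 279 and 461 counts in siCtrl against 153, 100 and 130 in siYAP/TAZ, and PROSER2-AS1 had 350, 271, 417, 131, 88 and 117 in the same order. PROSER2-AS1 was below PROSER2 in each library, at 85.2% to 97.1% of its count. The exact 95% binomial interval of its share of the summed counts included 50% in 5 of 6 libraries and ended at 49.6% in siCtrl replicate 1. The spans share 22670 bases but the exons only 31, and the 3′ end of each gene lies in an intron of the other. Which of these genes the reads came from cannot be told apart from counts. Summed as a single feature, the pair had a log2 fold change of -1.65.

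SH3BP5-AS1 (Entrez 100505696, chr3:15295691-15306022, plus strand) was higher in siYAP/TAZ. Its partner SH3BP5 encodes SAB, a mitochondrial protein that binds JNK. SH3BP5-AS1 had 21.0, 25.9 and 22.1 CPM in siCtrl against 60.3, 40.3 and 81.0 CPM in siYAP/TAZ. The siCtrl libraries were close together, and every siYAP/TAZ library was above them with a wide spread. The means were 23.0 ± 2.59 and 60.6 ± 20.4 CPM (SD, n = 3), a log2 fold change of 1.40 (SE 0.25).

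SH3BP5 followed the same course. It had 76, 95 and 98 counts in siCtrl against 286, 145 and 323 in siYAP/TAZ, where SH3BP5-AS1 had 73, 84, 88, 266, 122 and 298. The antisense row was below the sense row in each library, at 84.1% to 96.1%, and all 6 intervals of its share of the sum included 50%. The genes share 2475 exonic bases, and the 3′ end of SH3BP5 lies in an exon of SH3BP5-AS1. SH3BP5 rose by 1.41 on the log2 scale (SE 0.23, edgeR adjusted p of 0.0192), and its call was lost when siCtrl replicate 1 (0.0710), siCtrl 3 (0.124) or siYAP/TAZ 3 (0.108) was left out. Which of these genes the reads came from cannot be told apart from counts. The p-value of SH3BP5 is therefore not separate from the choice of SH3BP5-AS1. As a single feature the pair had a log2 fold change of 1.40.

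**Figure D3:**
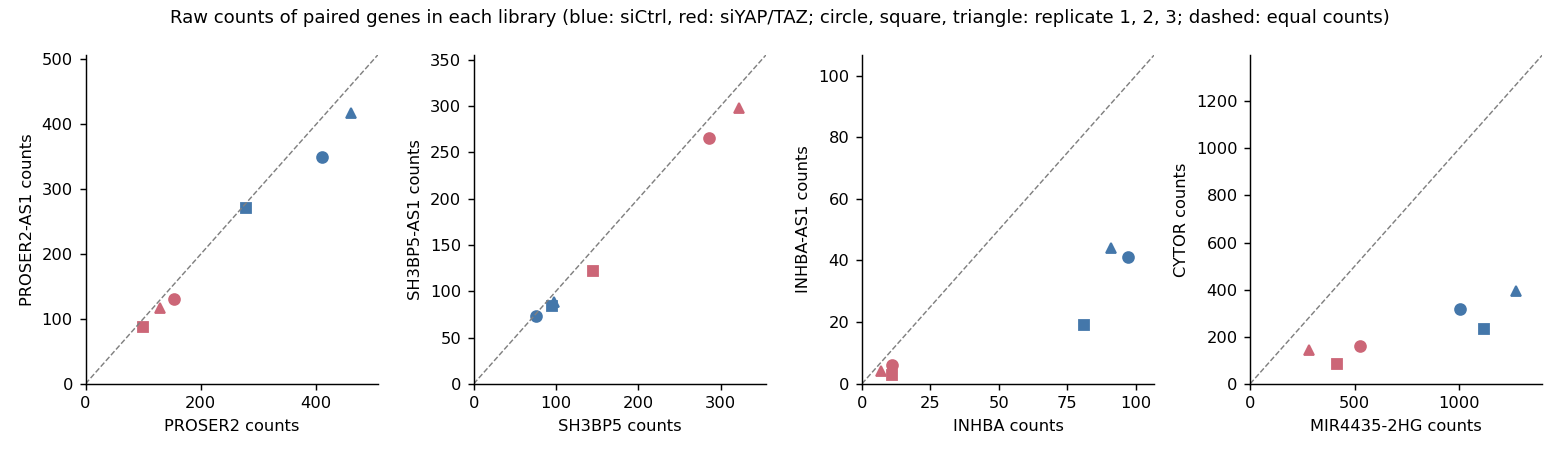
Raw counts of 4 gene pairs in each of the 6 libraries (siCtrl blue, siYAP/TAZ red, symbols for the replicate number), with a dashed line where both genes have equal counts. PROSER2-AS1 and SH3BP5-AS1 lie just below that line in every library, and INHBA-AS1 and CYTOR lie well below it.

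INHBA-AS1 (Entrez 285954, chr7:41733482-41818986, plus strand) had the lowest level left of the 10 genes. It lies opposite INHBA, which encodes the activin A subunit. INHBA-AS1 had 41, 19 and 44 counts in siCtrl against 6, 3 and 4 in siYAP/TAZ, so siYAP/TAZ replicate 2 was at the floor of 3 counts. The means were 9.57 ± 3.23 and 1.15 ± 0.19 CPM (SD, n = 3), which is 11.99% of the siCtrl level, a log2 fold change of -3.01 (SE 0.42). At these counts the size of the difference is known only roughly.

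The INHBA pair did not have the near-equal counts of the PROSER2 and SH3BP5 pairs. INHBA had 97, 81 and 91 counts in siCtrl against 11, 11 and 7 in siYAP/TAZ, and INHBA-AS1 was at 23.5% to 57.1% of it. The spans share 11951 bases and the exons 248, and neither 3′ end lies inside the partner. Both rows were lower to a similar degree, and whether they share reads was not tested. Summed as a single feature, the pair had a log2 fold change of -3.19. INHBA fell by 3.25 on the log2 scale (SE 0.28, edgeR adjusted p of 0.00315). With any 1 library left out, its edgeR adjusted p was at most 0.0329. INHBA was named because it overlaps INHBA-AS1, so its p-values may not be separate from the choice of INHBA-AS1.

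Near-equal counts of an antisense gene and its partner were common in the whole table. Among 94 pairs named as antisense and sense with at least 200 counts each, 32 (34.0%) had a ratio of 0.8 to 1.25. The share was 26 of 58 (44.8%) where the 3′ end of the sense gene lies in the antisense span, as for PROSER2, SH3BP5 and GAS5, and 6 of 36 (16.7%) where it does not. The PROSER2 and SH3BP5 pairs are among the 26, and the GAS5 pair, with a ratio of 0.095, is not. The median absolute difference between the log2 fold changes of both genes was 0.038 in the 32 pairs and 0.18 in the other 62. These counts describe the table, and the strand setting of the counting is not given in the sources used here.

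NEAT1 and MALAT1 are nuclear RNAs that lie near each other on chromosome 11. NEAT1 (Entrez 283131, chr11:65190245-65213011, plus strand) is the scaffold of paraspeckles, and its short form ends in a poly(A) tail while the long form does not. MALAT1 (Entrez 378938, chr11:65265111-65275544, plus strand) gathers in nuclear speckles, where splicing factors are stored, and its mature end is cut and folded into a triple helix in place of a tail.

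NEAT1 had no direction that held across libraries. It had 323, 2348 and 589 CPM in siCtrl against 793, 1309 and 951 CPM in siYAP/TAZ. The highest of all 6 values was in siCtrl replicate 2, while siCtrl replicates 1 and 3 were below every siYAP/TAZ library. The means were 1087 ± 1100 and 1018 ± 265 CPM (SD, n = 3), and the log2 fold change was -0.09 (SE 0.59). It was 1.16 (SE 0.27) without siCtrl replicate 2, -0.53 without siCtrl replicate 1 and 0.39 with the replicate number as a block. Without both libraries of conflicting labels it was 0.94. NEAT1 was past the threshold, as higher, in the fit without siCtrl replicate 2 and in that without both libraries, and in no other fit. These calls stand beside 12.3% and 9.29% of all genes.

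MALAT1 was higher in siYAP/TAZ, with the same control library apart. It had 5093, 14636 and 5695 CPM in siCtrl against 15557, 18769 and 19521 CPM in siYAP/TAZ. The groups did not overlap, but siCtrl replicate 2 was close to the lowest siYAP/TAZ library. The means were 8475 ± 5344 and 17949 ± 2105 CPM (SD, n = 3), a log2 fold change of 1.08 (SE 0.38). It was 1.74 (SE 0.20) without siCtrl replicate 2, 1.26 (SE 0.22) with the block and 1.71 without both libraries of conflicting labels. MALAT1 was past the threshold in these fits, beside 12.3%, 10.1% and 9.29% of all genes, and not in the unblocked fit of all libraries. It was chosen with this contrast known, so nothing is read from these calls.

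For the other genes, leaving out siCtrl replicate 2 moved the log2 fold change less. It was then -1.45 for both CYTOR and MIR4435-2HG, -1.76 for both PROSER2 and PROSER2-AS1, -3.25 for INHBA-AS1, 0.31 for MIR31HG and 1.497 for SH3BP5-AS1. The partner genes INHBA, SH3BP5 and BCL2L11 kept their calls in that fit, with adjusted p-values of 0.000521, 0.00405 and 0.00210. For SH3BP5 this is not separate from SH3BP5-AS1, since their counts are nearly the same. For INHBA it may not be separate from INHBA-AS1.

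**Figure D4:**
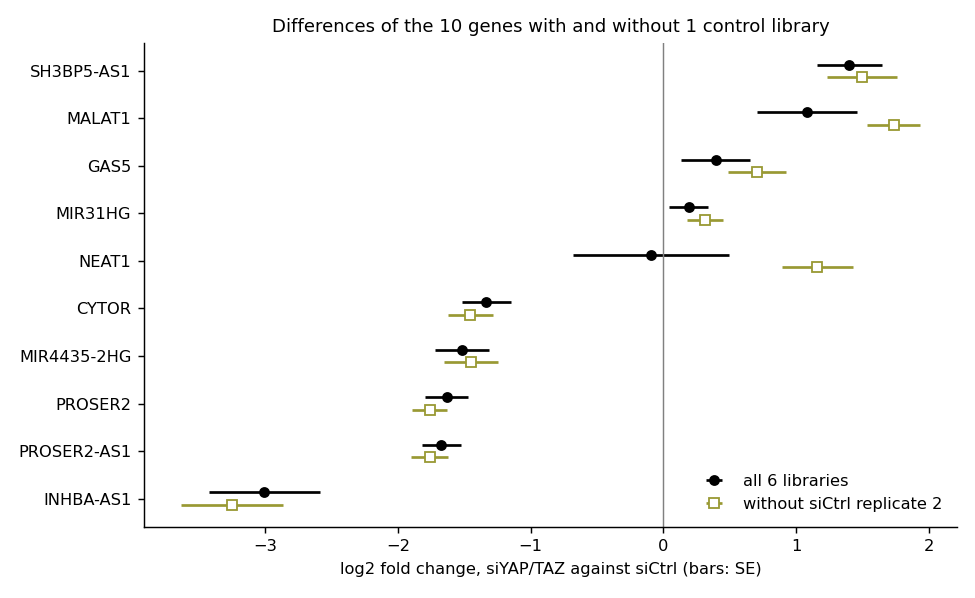
Log2 fold change of the 10 genes in siYAP/TAZ against siCtrl (bars: SE) with all 6 libraries (black circles) and without siCtrl replicate 2 (open squares). NEAT1 moves from -0.09 to 1.16 and MALAT1 from 1.08 to 1.74, and the 5 genes lower by more than 1 stay lower.

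Other nuclear features were read beside these RNAs. Of 12 messages known to be held back in the nucleus, 0 passed an adjusted p of 0.05 in edgeR, 1 was higher at an unadjusted p under 0.05, and DESeq2 called 0. Over all genes, 2211 of 12510 had an unadjusted p under 0.05 in edgeR, 1160 lower and 1051 higher, and DESeq2 called 3.06%. Without siCtrl replicate 2, 3 of the 12 passed, all higher (CLK1, CLK4 and PNISR), beside 12.3% of all genes, and the replicate block called CCNL2, beside 10.1%. These genes were named after their values were seen. Their median log2 fold change was 0.20, against -0.00093 over all genes tested, and 11 of 12 were above 0. Their summed level was 1754, 2172 and 1775 CPM in siCtrl against 1954, 2195 and 2269 CPM in siYAP/TAZ, so siCtrl replicate 2 was high here as it was for NEAT1 and MALAT1. The most abundant were SON (-0.04) and DDX17 (0.32). A run of at least 12 A bases, at which an oligo(dT) primer can start inside an RNA, occurs 3 times in NEAT1, with a longest run of 22, and once in MALAT1, with a run of 13. Such runs also occur in MIR4435-2HG (2, the longest of 14) and CYTOR (1, of 13), and in no other chosen gene. The part of nuclear RNA content or internal priming in the NEAT1 and MALAT1 values was not tested, nor was internal priming for CYTOR and MIR4435-2HG.

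Of the genes for paraspeckle proteins, 10 of 12 had a log2 fold change below 0. Of the 12, 0 passed in edgeR, 2 were lower at an unadjusted p under 0.05, DESeq2 called 1, and the median log2 fold change was -0.21. These counts stand beside 1160 of all 12510 genes that were lower at that unadjusted p, and 3.06% of all genes called by DESeq2. HNRNPK, which is needed to form paraspeckles, had -0.14, and SFPQ, a core protein that binds NEAT1, had -0.01. Without siCtrl replicate 2, 4 of the 12 passed, all lower, beside 12.3% of all genes. The replicate block called 2, HNRNPH3 and NUDT21, named after their values were seen, beside 10.1%.

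GAS5 (Entrez 60674, chr1:173827697-173838020, minus strand) hosts box C/D snoRNAs in its introns and was first known as a transcript of growth-arrested cells. It had 57.7, 121 and 81.4 CPM in siCtrl against 84.1, 130 and 128 CPM in siYAP/TAZ. The groups overlapped through siCtrl replicate 2, which was above siYAP/TAZ replicate 1. The means were 86.6 ± 31.8 and 114 ± 25.8 CPM (SD, n = 3). The log2 fold change was 0.39 (SE 0.26), or 0.71 (SE 0.22) without siCtrl replicate 2. GAS5-AS1, on the opposite strand, had 8.02% to 10.9% of the GAS5 counts and did not pass (0.41).

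Other snoRNA host genes gave a similar picture. Of 19 tested, 0 passed in edgeR, 3 had an unadjusted p under 0.05, 1 lower and 2 higher, and DESeq2 called 0. Among all genes, 2211 of 12510 had such an unadjusted p and DESeq2 called 3.06%. The median log2 fold change of the 19 host genes was 0.15. The most abundant were SNHG29 with 0.38 and ZFAS1 with 0.35. Their summed level was 1902, 3003 and 2095 CPM in siCtrl against 2455, 3169 and 2906 CPM in siYAP/TAZ, again with siCtrl replicate 2 near the siYAP/TAZ libraries. With the replicate block 2 passed, SNHG7 (0.82, adjusted p of 0.0310) and DANCR (0.45, 0.0319), which were named after their values were seen. These stand beside 10.1% of all genes. Without siCtrl replicate 2, 5 passed, all higher (SNHG7, SNHG29, SNHG32, ZFAS1 and EPB41L4A-AS1), beside 12.3% of all genes.

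Few other noncoding RNAs passed the threshold. Among 516 tested genes typed as noncoding RNA other than the chosen ones, 6 (1.16%) passed an adjusted p of 0.05 in edgeR, against 1.96% of all genes, 3 lower and 3 higher. With the replicate block 36 passed (6.98%), against 10.1% of all genes, and without siCtrl replicate 2 there were 58 of 546 (10.6%), against 12.3%. Their median log2 fold change was 0.080.

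From the lists of microRNA hosts (7 tested) and other known long noncoding RNAs (17 tested), 3 genes passed. LINC00963 had 22, 18 and 21 counts in siCtrl against 72, 48 and 79 in siYAP/TAZ, and rose by 1.64 on the log2 scale (SE 0.25, edgeR adjusted p of 0.0156). MIR22HG, the host of miR-22, had 48, 20 and 38 against 147, 69 and 100 counts (1.496, SE 0.29, adjusted p of 0.0352). WDR81, which overlaps MIR22HG on the opposite strand, had 115 counts in all libraries together and a log2 fold change of 0.50. LINC00707 had 88, 105 and 126 against 58, 31 and 49 counts (-1.27, SE 0.21, adjusted p of 0.0180). For each of these genes the groups did not overlap, and each lost its call without siCtrl replicate 3 or siYAP/TAZ replicate 3, with adjusted p-values of 0.100 and 0.109 for LINC00963, 0.175 and 0.162 for MIR22HG and 0.117 and 0.108 for LINC00707. Without siYAP/TAZ replicate 2 the value was 0.0734 for both MIR22HG and LINC00707, and without siYAP/TAZ replicate 1 it was 0.0946 for MIR22HG.

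The other 3 noncoding genes past the threshold, named after their values were seen, share their locus with coding genes, as MIR22HG does. OVCH1-AS1 had a log2 fold change of 1.63 (adjusted p of 0.0311 in edgeR), and OVCH1 on the opposite strand had 1.65. IDI2-AS1 had -1.05 (0.0157), and IDI1 on the opposite strand, which encodes an isomerase of isoprenoid and cholesterol synthesis, had -0.94, while IDI2, also opposite, had -0.19. ARHGAP19-SLIT1, a readthrough transcript, had -0.86 (0.0460). None of these passed without siCtrl replicate 3 (0.140, 0.0935 and 0.175), siYAP/TAZ replicate 2 (0.101, 0.0681 and 0.131) or siYAP/TAZ replicate 3 (0.164, 0.1096 and 0.215). OVCH1-AS1 and ARHGAP19-SLIT1 did not pass without siCtrl replicate 1 (0.103 and 0.0897) either, nor did ARHGAP19-SLIT1 without siYAP/TAZ replicate 1 (0.0927).

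**Figure D5:**
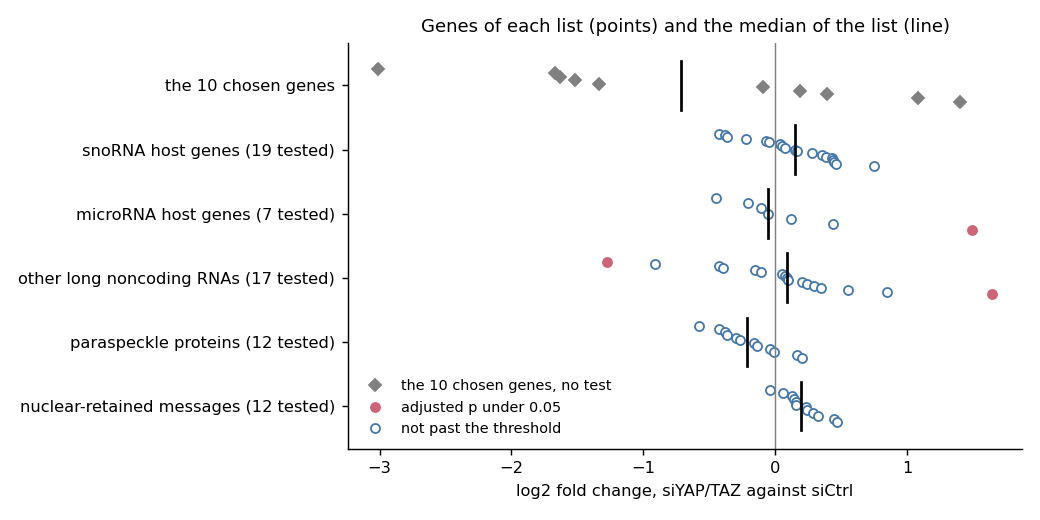
Log2 fold change in siYAP/TAZ against siCtrl of every tested gene of 6 lists (points) with the median of the list (line). The 10 chosen genes (grey diamonds, no test) spread from -3.01 to 1.40, and of the other lists 3 genes, LINC00707, MIR22HG and LINC00963, are past an adjusted p of 0.05 (filled red).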

How the data were processed

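The authors deposited unnormalised counts by Entrez ID for 6 libraries, made with a forward-strand 3′ mRNA kit. The submitters' processing notes name cutadapt 4.2 (adapter trimming), Bowtie2 2.3.5.1 (alignment) and the genome build hg19. The study's RNA-Seq methods describe counting reads over genes in R. The annotation and strand setting used for this table are not given in the sources used here. Symbols came from the RefSeq gene table of GRCh38.p14 (23308 of 23459 IDs, 99.7% of counts), and locations from GENCODE 44 lifted to GRCh37. Transcript ends were searched in the genome with blastn 2.17.0.

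Differences were fitted with the quasi-likelihood test of edgeR 4.0.16 (R 4.3.3) on group alone, after filterByExpr and TMM, and p-values were adjusted by Benjamini-Hochberg over the 12510 genes kept (threshold 0.05). CPM values are TMM-normalised. Scripts were tested on simulated data. Alternatives were DESeq2 1.42.0, other scalings and filters, robust dispersion, a replicate block, each library left out, groups from the title, both libraries with conflicting labels left out, and counts of overlapping genes summed. Same-numbered libraries deviated together (r of 0.42, 0.35 and 0.13 across genes), so the numbers of the description field were used as pairs in the replicate block. The main fit did not use them. Libraries of different numbers were not compared in this way, so these values do not establish a pairing. No library repeated another.

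The chosen genes, the lists and the tests were set with earlier results of these data known. Genes named beside the chosen ones overlap them, or were from each list the 3 largest rises and falls past the threshold or else the 2 most abundant. Some of these genes are not reported here.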

Additional observations from a re-analysis of the deposited data

How the results depend on the processing

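Of the 10 chosen genes, 9 kept the sign of their log2 fold change under all alternatives, and NEAT1 did not. With the replicate numbers as a block, 1263 genes, 36 noncoding RNAs, 2 snoRNA hosts and 5 genes of the other noncoding lists passed, in place of 245, 6, 0 and 3; 7 chosen genes passed in place of 6. DESeq2 called 587 genes and 17 noncoding RNAs, and no low-count filter gave 556 and 17. Without both libraries of conflicting labels there were 1183 genes, 44 noncoding RNAs, 4 snoRNA hosts, 5 genes of the other lists and 8 chosen genes. With groups from the title, 0 genes of any set passed, and the log2 fold changes of the chosen genes shrank, to -0.57 for CYTOR and -0.47 for MIR4435-2HG for example, except that of NEAT1, which was 0.88.

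With 1 library left out, the count was 16 to 1579 over all genes, 0 to 58 for noncoding RNAs, 0 to 5 for snoRNA hosts, 0 to 6 for the other lists and 2 to 8 for the chosen genes. The highest of each was without siCtrl replicate 2. The lowest over all genes and chosen genes were without siCtrl replicate 3 (16 and 2) and siYAP/TAZ replicate 3 (18 and 3), and the cause was not tested. PROSER2 and PROSER2-AS1 passed in each of these 6 fits, but their counts are nearly the same, so they are not separate results. Both were chosen with this contrast known, and nothing is read from these calls. INHBA-AS1 could not be fitted with a mean of at least 50 counts, since its mean is lower.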
